A study of Homo sapiens with 8 samples.

Results

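Heat shock chaperones are described here through 10 genes, chosen by symbol from the 58735 genes of the Caco-2 count table, and all 10 were found once each and passed the filter on low counts. The 8 cytosolic genes were HSP90AA1, HSP90AB1, HSPA1A, HSPA1B, HSPA8, HSPH1, DNAJB1 and HSPB1. The 2 mitochondrial genes were HSPD1 and HSPE1. The symbols were taken without regard to measured values, but with earlier results of these data known.

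The mRNA of Caco-2 cells, a line from a human colorectal carcinoma used as a model of the intestinal epithelium, was measured in 3 libraries treated with M2-exo and in 3 libraries given PBS, called untreated here. M2-exo are exosomes, small vesicles released by cells, which the labels trace to THP-1, a monocytic leukaemia line; M2 commonly denotes macrophages in the alternatively activated state. The labels give all of them as wild type. The sources used here state neither dose nor time, nor whether the 3 libraries of a group came from separate cultures, so each p-value reflects the spread between libraries, which may be technical. The labels call the cells stem cells, while epithelial genes were abundant: KRT8 had between 62570 and 117276 counts in the 6 libraries. The 10 listed intestinal epithelial markers summed to 8960 to 11462 CPM (counts scaled to library size) in treated and 9774 to 12377 CPM in untreated libraries, with CDX1 and KRT20 at 5 counts or fewer in each library. The 15 listed macrophage markers summed to 14.3 to 21.8 CPM in treated and 17.5 to 23.7 CPM in untreated libraries, and CD68, TYROBP, C1QA and C1QB were at 0 in all 6. Totals ranged from 17408745 to 18184325 counts in treated and from 15608937 to 18324599 counts in untreated libraries.

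Heat shock proteins are chaperones that bind unfolded or partly folded proteins, keep them from clumping and pass them through cycles of ATP binding and release. The HSP70 cycle is started by J-domain partners such as DNAJB1 and reset by nucleotide exchange factors such as HSPH1. HSP90 then matures clients such as kinases and steroid receptors, small heat shock proteins such as HSPB1 hold unfolded chains without ATP, and the HSPD1 barrel with its HSPE1 lid folds proteins in the mitochondrial matrix. On proteotoxic stress the factor HSF1 binds heat shock elements, repeats of GAA and its reverse complement TTC, and raises the stress-inducible genes.

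The promoter sequences show which members carry those letters. RefSeq windows of GRCh38.p14 from 250 bases before each start were searched on both strands, and the 10 genes had 16 windows, at least 1 each. A run of 3 alternating units, GAANNTTCNNGAA or TTCNNGAANNTTC, lay in windows of 4 of the 10 genes, HSP90AA1, HSP90AB1, HSPA8 and HSPD1, against 0.557% of the 27305 genes with a window. The shorter pair GAANNTTC, which every such run also contains, lay in windows of 8 of 10 genes, against 7.05% of all genes. Neither HSPE1 nor HSPH1 had the pair in these windows, which says nothing about HSF1 binding elsewhere. The 30 bases around the first match of each gene are given 5′ to 3′ on the gene's strand, with the matched letters in capitals, so that the runs of 3 units in the first 4 can be set against the pairs of the others (HSP90AB1, HSPA8, HSPD1 and DNAJB1 hold 2 matches in their window, of which the first is shown):
HSP90AA1: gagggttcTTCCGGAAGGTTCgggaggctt
HSP90AB1: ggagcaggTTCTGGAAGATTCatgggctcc
HSPA8: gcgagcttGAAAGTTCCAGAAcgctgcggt
HSPD1: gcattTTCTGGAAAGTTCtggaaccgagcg
HSPA1A: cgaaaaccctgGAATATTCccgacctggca
HSPA1B: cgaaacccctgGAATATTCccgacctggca
DNAJB1: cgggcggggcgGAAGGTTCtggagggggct
HSPB1: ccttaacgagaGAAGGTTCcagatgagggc

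These stretches lie at chr14:102087111-102087140 (minus strand), chr6:44247770-44247799 (plus), chr11:123062345-123062374 (minus), chr2:197500061-197500090 (minus), chr6:31815426-31815455 (plus), chr6:31827622-31827651 (plus), chr19:14518456-14518485 (minus) and chr7:76302480-76302509 (plus), in the order given. The matches begin 88, 165, 230, 245, 106, 105, 77 and 182 bases before the start in that order, so those of HSP90AA1 and DNAJB1 lie nearest to it. In HSPD1 the second match overlaps the first, so its run of alternating units continues past the letters in capitals. HSPD1 has a second RefSeq start, which lies 105 bases from that of HSPE1 on the opposite strand, so that both genes are read outward from a shared stretch. Their windows there have 204 bases in common. The HSPD1 match shown lies outside them, in the window of the other HSPD1 start at base 197499840, which shares 0 bases with the HSPE1 window.

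Levels differed far more between members than between groups. FPKM values, which divide counts by deposited gene length and library size, put HSP90AB1 first at a mean of 805 over all 6 libraries. HSPA8 followed at 529, HSPD1 at 366 and HSP90AA1 at 267 FPKM, and these 4 ranked 21, 38, 59 and 95 among all genes. The other members were much lower: HSPB1 at 46.6, HSPE1 at 42.6, HSPH1 at 34.2, DNAJB1 at 26.5, HSPA1A at 16.4 and HSPA1B at 13.9 FPKM. HSP90AB1, HSPA8 and HSP90AA1 did not overlap in range over the 6 libraries with the gene next below. HSPD1 overlapped in range with HSP90AA1 but was above it in 6 of 6 libraries. From HSPB1 down, each member overlapped in range with the next. This order rests on the deposited gene lengths, such as 4849 bases for HSPA8 and 2980 for HSP90AB1. In mean CPM, which leaves length out, HSPA8 (2588) lay above HSP90AB1 (2420). On that scale HSPH1 (289) and DNAJB1 (98.2) also lay above HSPE1 (85.1) and HSPB1 (76.7). Together the 10 genes took 0.783% to 0.937% of all counts in treated and 0.752% to 0.959% in untreated libraries.

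**Figure D1:**
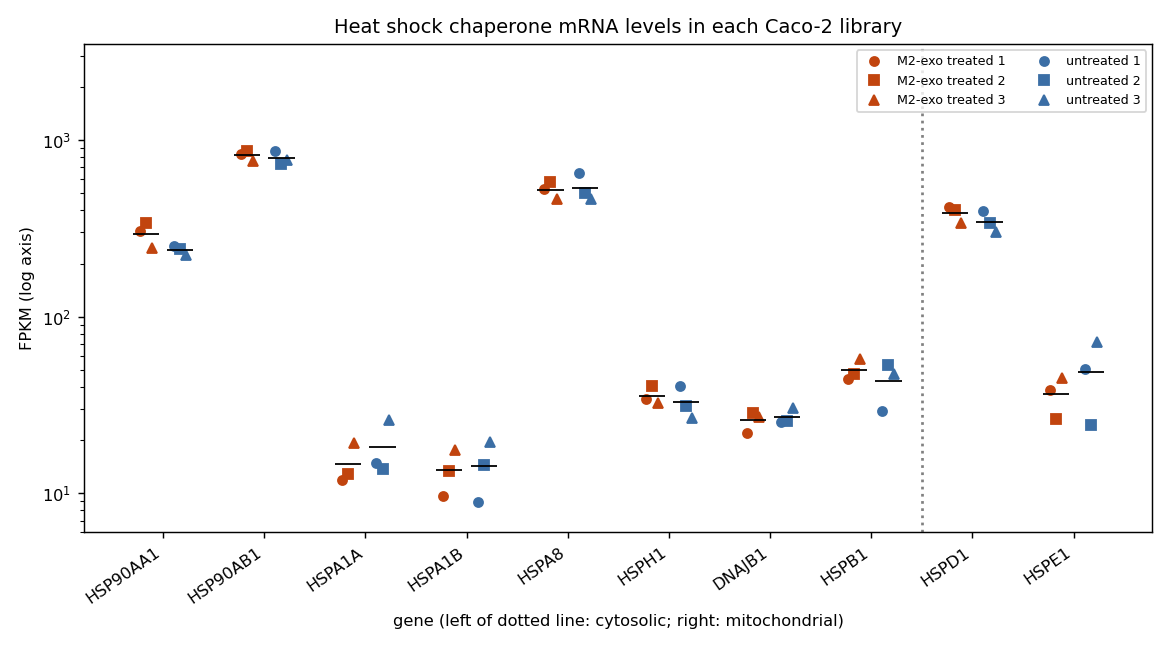
FPKM on a log axis for the 10 genes in the M2-exo treated libraries (orange, left of each pair) and the untreated libraries (blue), with black bars at the group means. HSP90AB1, HSPA8, HSPD1 and HSP90AA1 lie above 224 FPKM in every library, and the other 6 genes at or below 71.5.

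No member passed the test for a difference after M2-exo. In bulk libraries such as these, fewer expressing cells and less mRNA per cell cannot be told apart. The quasi-likelihood test of edgeR, fitted over 15084 genes and adjusted by Benjamini-Hochberg, called 0 of 10 members higher and 0 lower, against 0% of all genes in each direction. The adjusted p was 0.9999 for each member. At an unadjusted p under 0.05 the count was also 0 of 10, against 0.736% of all genes, and DESeq2 and limma-voom likewise gave 0 of 10 by either measure. In edgeR the unadjusted count was 2 of 10 with no filter on low counts, against 493 of 29414 genes. It was 1 of 10 without treated 3 (120 of 15493 genes), without untreated 1 (370 of 15564) or untreated 2 (158 of 15525). With the library number as a block it was also 1 of 10, against 211 of 15084 genes. The log2 fold change was above 0 in 5 of 10 members, against 47.1% of all genes, with a median of 0.004 for the members and -0.01 for all genes. For no member were the 3 treated CPM values all above or all below the 3 untreated ones, against 1.65% of all genes with treated values all higher and 2.30% with all lower.

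Of the HSP90 genes, HSP90AA1, on chromosome 14 from 102080738 to 102139699, encodes the stress-inducible form. It had 305, 338 and 244 FPKM in treated and 251, 242 and 224 FPKM in untreated libraries. Treated libraries 1 and 2 lay above every untreated library, while treated 3 fell inside the untreated range. The log2 fold change was 0.30 (SE 0.15; edgeR unadjusted p = 0.070, adjusted p = 0.9999), the highest of the 10, and HSP90AA1 was the only member whose change exceeded its own within-group SD of log2 CPM. Leaving out 1 library at a time gave 0.20 without treated 2 to 0.44 without treated 3. HSP90AB1, the constitutive form, on chromosome 6 from 44246166 to 44253888, had 835, 871 and 757 FPKM in treated and 866, 733 and 770 FPKM in untreated libraries. The groups overlapped throughout, with a log2 fold change of 0.05 (SE 0.13), which ranged from 0.01 without treated 2 to 0.13 without untreated 1.

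Of the HSP70 genes, HSPA8 encodes the constitutive cytosolic form and lies on chromosome 11 from 123057489 to 123063230. It had 525, 579 and 461 FPKM in treated and 648, 499 and 461 FPKM in untreated libraries. The highest value was that of untreated 1 and the lowest of each group that of library 3. The log2 fold change was -0.04 (SE 0.16), but 0.13 without untreated 1, 0.05 without treated 3 and -0.12 without untreated 3.

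HSPA1A and HSPA1B, the stress-inducible HSP70 genes, lie close together on chromosome 6, from 31815464 to 31817946 and from 31827735 to 31830255. They encode near-identical copies, so the counting could split their reads. How reads matching both genes were counted is not stated, which leaves the levels of both, and of their sum, uncertain. HSPA1A had 11.9, 12.8 and 19.3 FPKM in treated and 14.9, 13.7 and 25.9 FPKM in untreated libraries (log2 fold change -0.32, SE 0.28). HSPA1B had 9.63, 13.4 and 17.6 FPKM in treated and 8.91, 14.5 and 19.4 FPKM in untreated libraries (log2 fold change -0.08, SE 0.30). In each gene library 3 was the highest of its group, and the groups overlapped. With both genes summed to 1 row the log2 fold change was -0.21 (edgeR adjusted p = 1.00). The sign turned without untreated 3, at 0.05 for HSPA1A and 0.22 for HSPA1B. That of HSPA1B also turned without treated 1, at 0.13.

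The partners of HSP70 are HSPH1, its HSP110 exchange factor (chromosome 13 from 31134974 to 31162388), and DNAJB1, its J-domain activator (chromosome 19 from 14514770 to 14529770). HSPH1 had 34.4, 40.3 and 32.2 FPKM in treated and 40.4, 31.2 and 26.6 FPKM in untreated libraries. The range of the untreated values enclosed all treated values, with a log2 fold change of 0.12 (SE 0.18). It was 0.0055 without untreated 3, 0.02 without treated 2 and 0.31 without untreated 1. DNAJB1 had 22.1, 28.6 and 26.9 FPKM in treated and 25.2, 25.7 and 30.6 FPKM in untreated libraries (log2 fold change -0.08, SE 0.16, and 0.04 without treated 1 or 0.03 without untreated 3). Its interval overlaps TECR on the other strand, which had 1393 to 2962 counts, and the sources used here do not say whether the counting used strand. HSPB1, a small heat shock protein gene on chromosome 7 from 76302544 to 76304295, had 44.6, 47.4 and 57.9 FPKM in treated and 29.3, 53.0 and 47.4 FPKM in untreated libraries. Untreated 1 was the lowest of the 6, and the log2 fold change of 0.21 (SE 0.22) was 0.001 without it and 0.39 without untreated 2.

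Of the mitochondrial pair, HSPD1, the HSP60 subunit of the barrel, lies on chromosome 2 from 197486581 to 197516737. It had 419, 401 and 340 FPKM in treated and 398, 337 and 302 FPKM in untreated libraries. Treated 1 was the highest library and untreated 3 the lowest, with overlap between the groups. The log2 fold change was 0.16 (SE 0.15), with 0.086 without untreated 3 and 0.28 without untreated 1. HSPE1, the HSP10 lid (chromosome 2 from 197499994 to 197503457), had 38.4, 26.3 and 44.8 FPKM in treated and 50.4, 24.3 and 71.5 FPKM in untreated libraries. Untreated libraries held both its lowest and its highest value, so the untreated range enclosed all treated values. The log2 fold change was -0.42 (SE 0.35), the lowest of the 10, but -0.01 without untreated 3 and -0.73 without untreated 2. Its interval lies inside that of HSPD1 and overlaps the readthrough gene HSPE1-MOB4, which had 0, 0 and 1 counts in treated and 3, 0 and 4 counts in untreated libraries. The sources used here do not say how reads shared by both were counted, which leaves the level of HSPE1 uncertain.

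**Figure D2:**
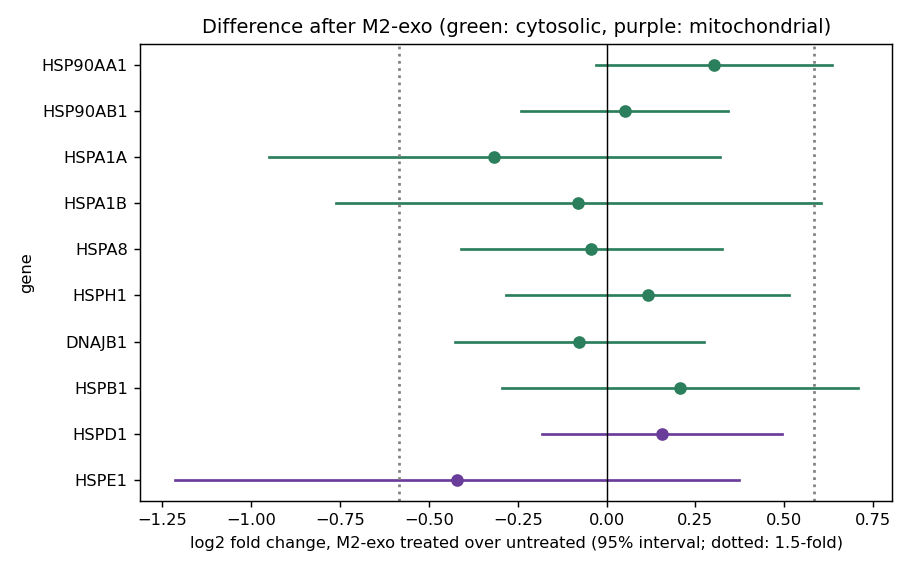
Log2 fold change of M2-exo treated over untreated libraries for each gene, with its 95% interval, cytosolic genes in green and mitochondrial genes in purple; dotted lines mark 1.5-fold. Every interval includes 0, and HSPE1 has the widest, from -1.22 to 0.37.

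The intervals show what size of change the libraries could still hold. They lay within 1.5-fold in both directions for 5 of 10 members, HSP90AB1, HSPA8, HSPH1, DNAJB1 and HSPD1, against 45.2% of all genes and 75.8% of the 7820 genes whose mean CPM reached 20. For HSPD1 the fold change was 1.11 (95% interval 0.882 to 1.41) and for HSPA8 0.971 (0.753 to 1.25). The interval of HSP90AA1 reached from 0.979 to 1.55. It ran from 0.517 to 1.25 for HSPA1A, and only that of HSPE1, from 0.431 to 1.29, reached past 2-fold.

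Cytosolic and mitochondrial chaperones did not separate. Of the 8 cytosolic genes 4 had a log2 fold change above 0 and 4 below, and of the 2 mitochondrial genes 1 lay on each side. The mean log2 fold change of the mitochondrial genes was 0.15 below that of the cytosolic genes (difference -0.15). The mitochondrial mean was negative through HSPE1 (-0.42), whose level is uncertain, while HSPD1 stood at 0.16. The same difference in mean log2 CPM, mitochondrial minus cytosolic, was 0.59, 0.08 and 0.37 in treated and 0.74, 0.04 and 0.61 in untreated libraries. Library 2 was the lowest in both groups, where HSPE1 was lowest too, and the groups overlapped. It averaged 0.35 ± 0.25 in treated and 0.46 ± 0.37 in untreated libraries (SD, n = 3 each), and as a score over chosen members it was given no p. Cytosolic members took 0.631% to 0.764% of counts in treated and 0.612% to 0.776% in untreated libraries (means 0.710% and 0.681%). Mitochondrial members took 0.153% to 0.191% of counts in treated and 0.140% to 0.183% in untreated libraries (means 0.172% and 0.158%). Both mean shares were thus higher in treated libraries, with overlap.

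Ratios between genes within a library do not depend on its scaling. The HSP90AA1 level was 0.365, 0.388 and 0.323 of that of HSP90AB1 in FPKM in treated and 0.290, 0.330 and 0.291 in untreated libraries, and only treated 3 and untreated 2 crossed. HSPA1A and HSPA1B together reached 4.10%, 4.53% and 8.0% of the FPKM of HSPA8 in treated and 3.68%, 5.65% and 9.85% in untreated libraries. There library 3 was the highest in each group, and the groups overlapped. HSPE1 stood at 9.17%, 6.56% and 13.2% of the FPKM of HSPD1 in treated and 12.7%, 7.19% and 23.7% in untreated libraries, again with overlap. HSPH1 stood at 6.54%, 6.95% and 6.99% of the FPKM of HSPA8 in treated and 6.24%, 6.26% and 5.78% in untreated libraries. HSPD1 relative to HSP90AB1 (0.449 to 0.502 in treated and 0.392 to 0.460 in untreated libraries) and DNAJB1 relative to HSPA8 (4.20% to 5.83% in treated and 3.90% to 6.64% in untreated libraries) overlapped as well. HSPH1 over HSPA8 was thus the one ratio of the 6 computed in which all treated libraries lay above all untreated ones. Ratios of chosen members were not tested, and the share of other gene pairs with such separation was not computed. With 3 libraries against 3, an exact permutation test could give no p below 0.1 even for full separation.

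**Figure D3:**
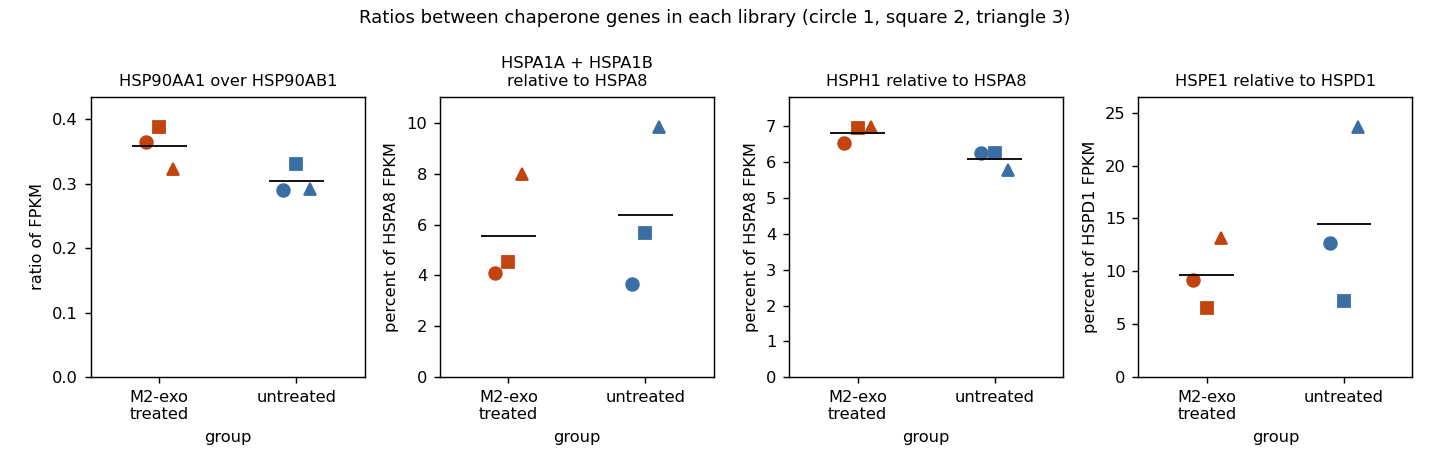
Ratios of FPKM between chaperone genes in each library, M2-exo treated left and untreated right, with bars at the group means; circles, squares and triangles are libraries 1, 2 and 3. HSPH1 relative to HSPA8 is the panel without overlap, from 6.54% up in treated and up to 6.26% in untreated libraries. The ratios were not tested.

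The spread within groups was larger than the difference between them in 9 of 10 members. Over all genes too, the median size of the log2 fold change, 0.099, was below the median within-group SD, 0.27. The SD of log2 CPM within groups was 0.63 for HSPE1, 0.50 for HSPA1B, 0.44 for HSPA1A and 0.35 for HSPB1, against a median of 0.27 over all genes. It was 0.12 for HSP90AB1 and between 0.17 and 0.24 for HSP90AA1, HSPA8, HSPH1, DNAJB1 and HSPD1. Both stress-inducible HSP70 genes were thus among the 4 members that varied more than the median gene. HSP90AB1, the member with the highest mean FPKM, varied least. Each member was also set against genes of like mean CPM, from 37 genes for HSPA8 to 4848 for HSPA1A. The within-group SD exceeded that of 52.4% of such genes for HSP90AA1, 58.8% for HSPD1, 62.2% for HSPA8 and 72.0% for HSPH1. The share ran from 84.8% for HSPB1 to 97.6% for HSPE1 among the 4 more variable members. It was 28.9% for HSP90AB1 and 38.1% for DNAJB1. The SD of log2 CPM was larger among untreated than among treated libraries in 8 of 10 members and in 72.0% of all genes.

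Part of this spread followed library 3, which lay at the same end of both groups in most members. HSP90AB1, DNAJB1 and HSPB1 did not show this. For library 2 the deviations of the groups correlated at -0.12 over 10890 genes, so the library number as such was not followed. Library 3 was the highest of its group, treated and untreated alike, for HSPA1A, HSPA1B and HSPE1, which is 3 of 10 members against 22.5% of all genes. It was the lowest of both groups for HSP90AA1, HSPA8, HSPH1 and HSPD1, which is 4 of 10 against 20.4% of all genes. Both kinds together made 7 of 10 members and 42.9% of all genes, so the pattern was common in the whole table. HSPA1B in library 3 was 1.83 times library 1 among treated and 2.18 times among untreated CPM values. HSPD1 in library 3 was 0.811 times library 1 among treated and 0.758 times among untreated values. The first principal component of all genes, with 50.1% of the variance, had scores of -13.4, 1.89 and 23.8 in treated and -56.0, 0.479 and 43.2 in untreated libraries 1 to 3. The ends of this component were thus untreated 1 and untreated 3, the libraries with the highest HSPA8 and the highest HSPA1A and HSPA1B. Genes of the mitochondrial chromosome took 7.5%, 7.49% and 8.11% of counts in treated and 4.16%, 7.48% and 7.01% in untreated libraries. The part of these library differences in the chaperone values was not tested.

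**Figure D4:**
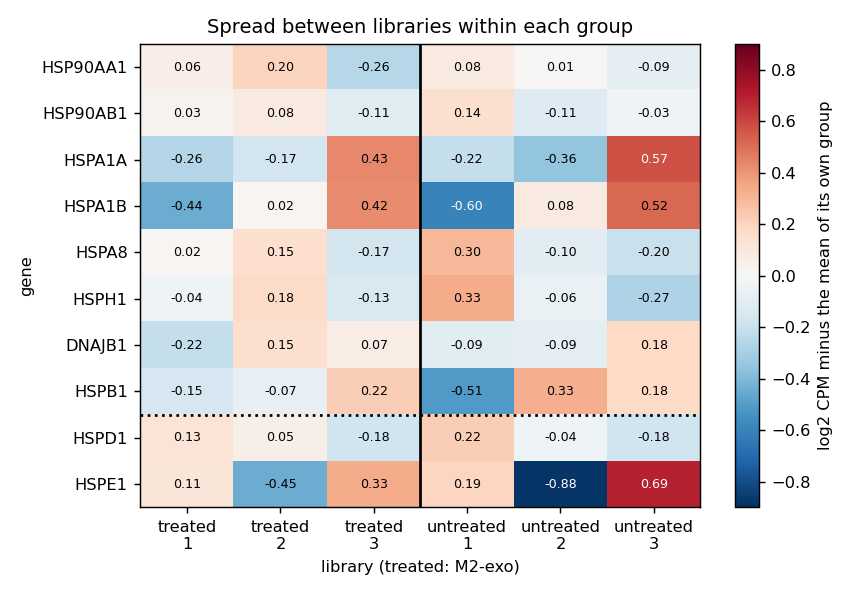
Log2 CPM of each gene in each library minus the mean of its own group, with M2-exo treated libraries left of the line and untreated libraries right; red is above and blue below the group mean. HSPE1 in untreated libraries 2 and 3, at -0.88 and 0.69, shows the widest spread.

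The rest of the folding machinery was read from 12 lists with 89 genes, of which 85 were tested. None was called by edgeR in either direction, and 0 had an unadjusted p under 0.05. The log2 fold change was above 0 in 38 and below 0 in 47, with a median of -0.02, against -0.01 for all genes.

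Among cytosolic lists, the 7 tested J-domain co-chaperones, which deliver clients to HSP70, had 3 above 0 and a median of -0.01, from DNAJB2 at -0.15 to DNAJC7 at 0.11 among those of at least 5 CPM. The 6 nucleotide exchange factors had 3 above 0 (median 0.03), with BAG1 at -0.09 and BAG3, itself a stress-inducible gene, at 0.23 (SE 0.27). The other HSP70 and HSP110 genes had 3 of 5 above 0 (median 0.07), with HSPA2 at -0.24 and HSPA4L at 0.26. Of 12 HSP90 co-chaperones 6 lay above 0 (median -0.01), with the ubiquitin ligase gene STUB1 at -0.31 (SE 0.20) and the cyclophilin gene PPID at 0.20 (SE 0.17). The 8 genes of TRiC, the cytosolic chaperonin that folds actin and tubulin, all stayed between -0.09 (CCT2) and 0.06 (CCT4), with 3 above 0 and a median of -0.04. Of 6 prefoldin genes, which hand actin and tubulin to TRiC, 1 lay above 0 (median -0.05), from PFDN6 at -0.56 (SE 0.51) to PFDN4 at 0.11.

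Among mitochondrial lists, the 7 other chaperone genes had 4 above 0 and a median of 0.003. HSPA9, the mitochondrial HSP70, stood at a mean of 90.6 FPKM in treated and 90.1 FPKM in untreated cells (log2 fold change 0.003, SE 0.16). The ends of that list were CLPX at -0.07 and GRPEL1 at 0.06. The 8 proteases and prohibitins had 2 above 0 (median -0.05), with the protease gene AFG3L2 at -0.14 and the prohibitin gene PHB at 0.11. The 10 import genes had 4 above 0 (median -0.06), with the channel gene TIMM23 at -0.25 (SE 0.17) and the receptor gene TOMM70 at 0.09. Over these 3 lists 10 of 25 genes lay above 0, and over the 6 cytosolic lists 19 of 44, with medians of -0.05 and -0.02.

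Among regulators, HSF1, the main heat shock factor, stood at 11.6 FPKM in treated and 10.8 FPKM in untreated cells (log2 fold change 0.10, SE 0.25), HSF2 at 0.08 and the HSF1-binding protein gene HSBP1 at -0.17 (SE 0.15) on the same log2 scale. Of the 4 other genes listed as small heat shock proteins, CRYAB and HSPB6 had too few counts to be tested, and HSPB8 (0.19) and HSPB11 (-0.01) were tested.

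**Figure D5:**
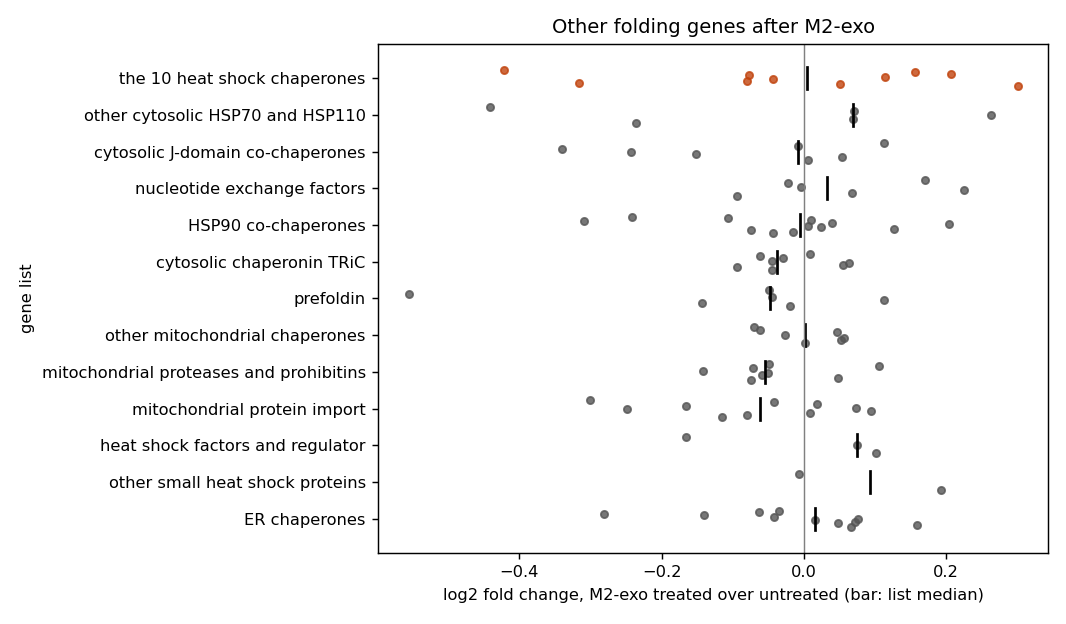
Log2 fold change of M2-exo treated over untreated libraries for each tested gene of the 12 other lists (grey) and the 10 heat shock chaperones (orange), with black bars at the list medians. Medians lie between -0.06 and 0.09.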

How the data were processed

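Gene-level counts and FPKM of Caco-2 cells were used as deposited by the authors; the submitters' processing notes name CASAVA, HISAT2, featureCounts and GRCh38, and the sources used here give no version, strand setting or rule for reads shared between genes. The deposited FPKM values are counts over gene length, scaled by 1 constant for each library. In the 2 gene tables, 6 columns match no sample and were not used. The deposited counts were filtered with filterByExpr, scaled by TMM and tested in edgeR 4.0.16 (R 4.3.3) by the quasi-likelihood F test, 2-sided, with Benjamini-Hochberg adjustment at 0.05. SEs are the log2 fold change over the root of F, and log2 CPM used a prior count of 2. The fit was tested on simulated data. Named list genes are the highest and lowest log2 fold change of each list at a mean CPM of at least 5. DESeq2 1.42.0, limma 3.58.1 and other filters, scalings and library omissions were alternatives. Precision rested on the spread between the 3 libraries of each group as well as on totals of 15608937 to 18324599 counts. The members and lists were chosen with earlier results of these data known. The exosome small RNA table holds no mRNA and was not used.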

Additional observations from a re-analysis of the deposited data

How the results depend on the processing

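No member was called under any of the 15 alternatives fitted to all 10, and the lowest adjusted p of a member was 0.957. Of 229 values recomputed, 219 were counted as unchanged, while 7 fold changes changed sign and 3 counts of called genes moved. Fold changes had to keep their direction and side of the threshold. With no adjusted p of a member below 0.957, only the direction could decide. HSPE1 at -0.73 and at -0.01 thus both counted as unchanged, and the 219 do not measure how stable the sizes were. Counts had to equal the main value or lie within 1.5-fold of it. The mitochondrial minus cytosolic difference had to shift by less than its within-group SD. That SD was 0.25 in treated and 0.37 in untreated libraries, more than the size of the difference itself (-0.15). Passing this rule therefore does not show that the difference was stable. The called genes over the whole table numbered 0 higher and 0 lower, but 3 and 3 with no filter on low counts, and 0 to 1 higher when 1 library was left out (1 without treated 2). Changes of sign came only from leaving out libraries: HSPA1A ranged from -0.55 to 0.046, HSPA1B from -0.32 to 0.22, HSPA8 from -0.12 to 0.13 and DNAJB1 from -0.15 to 0.043; the cause was not tested. The mitochondrial minus cytosolic difference ranged from -0.31 to -0.04 without 1 library. Deviations of same-numbered libraries correlated at 0.46, -0.12 and 0.70 over 10890 genes, and treated 2 correlated best with untreated 1, so the numbers were not taken as pairs; with the replicate number as a block, 0 genes were called and HSP90AA1 stood at 0.29 (edgeR unadjusted p = 0.044, adjusted p = 0.9999), HSPA1A at -0.29, HSPE1 at -0.33 and the mitochondrial minus cytosolic difference at -0.12. The median 95% interval reached 0.51 to each side on the log2 scale, which limits what could be seen.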

Other observations

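Chaperones of the endoplasmic reticulum, which fold secreted and membrane proteins, were read as a further compartment. None of the 11 was called, 6 lay above 0 and the median log2 fold change was 0.02. HSP90B1, the HSP90 of this compartment, stood at 234 FPKM in treated and 209 FPKM in untreated cells (log2 fold change 0.16, SE 0.16). HSPA5, its HSP70, stood at 221 FPKM in treated and 211 FPKM in untreated cells (0.07, SE 0.13). The J-domain partner gene DNAJB11 had the lowest log2 fold change of the list, at 15.5 FPKM in treated and 18.8 FPKM in untreated cells (-0.28, SE 0.19).

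HSPA1L, another HSP70 gene beside HSPA1A and HSPA1B, was named after its values were seen. Its mean of 2.27 CPM was low, below the 5 CPM required of the list genes named above. It was the one gene of the 12 lists whose treated values all lay below its untreated ones, at a mean of 0.750 FPKM in treated and 1.02 FPKM in untreated cells (log2 fold change -0.44, SE 0.29, edgeR adjusted p = 0.9999). This is 1 of 85 tested genes, against 2.30% of all genes.

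Across the 6 libraries, the protein-coding genes of at least 20 CPM most like HSPD1 in log2 CPM were THNSL1, B4GALT6 and KIF3B. For HSP90AA1 they were PPID, CASP8 and NAA35, and for HSPA1B they were WDR62, EEF2 and PLEKHM2. Likeness was the Pearson coefficient, at least 0.946 for each of these 9, over libraries that share the main axis of spread, and it is a description with no test. Among the 7688 other genes HSPE1 came 4920th in likeness to HSPD1, and HSPA1A came 1869th in likeness to HSPA1B.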
